A study of Bos taurus with 18 samples.

Results

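The comparison set the theca of small antral follicles against the interstitial stroma of the cattle ovary, over all transcripts on the array. The 6 theca arrays and the 4 interstitial stroma arrays were chosen by sample title, and make 10 of the 18 arrays of the series. The other 8 hold the tunica albuginea and the stroma that borders follicles, with 4 arrays each. The study set these layers side by side to describe how ovarian stroma and theca differ in their transcripts.

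All ovaries came from non-pregnant Bos taurus cows at an abattoir, 1 ovary per animal, with no treatment. The sources used here do not give the ages of the cows. Each theca array held the dissected theca of a healthy follicle below 5 mm in diameter from an individual animal, with RNA taken by a column kit (RNeasy mini). Each interstitial array held tissue cut by laser from 10 µm sections of frozen cortex stained with cresyl violet, pooled from different animals, with RNA taken by the RNAqueous-Micro kit, made for minute samples. RNA of both kinds was amplified from picogram amounts with the same whole-transcriptome system. Compartment, collection route, staining, pooling and RNA kit changed together between the groups, and their parts in any difference below cannot be told apart.

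The theca is the vascular, hormone-producing sheath around a follicle. Its steroidogenic cells take up or make cholesterol and, under luteinizing hormone, turn it into androgens, which the granulosa cells inside the follicle convert to oestrogen. Interstitial stroma is the fibroblast-rich connective tissue between follicles, and it also holds vessels, smooth muscle and, in the cortex, small follicles.

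Expression was measured as log2 signal of 26773 transcript clusters, each a set of probes for 1 transcript region, and 18010 genes had a cluster with their symbol alone. Every array had a median of 4.1, so signals below about 4.1 may be background, and a difference measured from such a signal is then a lower limit. Correlations over clusters ran from 0.953 to 0.980 among theca arrays and from 0.966 to 0.970 among interstitial arrays. No array stood apart from its group, with each array's mean correlation to its own group between 0.964 and 0.974. The median SD of a cluster was 0.232 in theca and 0.216 in interstitial stroma.

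Theca and interstitial stroma differed in many transcripts, and in both directions alike. At an adjusted p below 0.05, called a change from here on, 7747 of 26773 clusters differed (28.9%), 3850 of them higher in theca (14.4%) and 3897 lower (14.6%). Large differences were more often toward theca. At 2-fold or more 1504 clusters were higher and 1064 lower, at 8-fold 89 and 44, and at 32-fold 11 and 2. The arrays of the groups did not overlap at 5176 clusters (19.3%). Among the dimmest 5355 clusters 12.2% changed, most of them lower in theca (531 against 122 higher), and among the brightest 5355 46.7% changed, with 1501 higher and 998 lower. The even split rests on the normalisation, which gives all arrays the same distribution of signal. Centred on cytosolic ribosomal protein genes, which shifted differences by 0.22, 22.3% of changes were higher in theca, against 49.7% as deposited. Centred on the brightest 25% of clusters the share was 37.0%. Differences below are relative to the deposited scale. Counts of list members below are to be read against the shares of all clusters, 14.4% higher and 14.6% lower. With every signal below 4.1 set to 4.1, 5171 clusters changed, and of the genes named below RXFP2, LAMA3, PTGS2, MIR145, CD163, CPA3, FSHR, FOXL2, ZP3, GDF9, FIGLA, EPCAM, LRRN4, ERBB3, ANPEP, CDC6 and CARTPT no longer did. The same held for ANGPT1, FDFT1, PCNA, PTTG1, KRT8 and KRT18. In whole tissue, fewer cells of a type and less RNA per cell cannot be told apart.

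The largest differences were those of the androgen-making cell. INSL3, the insulin-like hormone of theca cells, had log2 signals from 10.5 to 11.2 in theca (median 10.9), against 3.2, 3.8, 3.5 and 3.4 in interstitial stroma. LHCGR, the receptor for luteinizing hormone, ran from 8.4 to 9.6 in theca (median 9.25), against 2.8, 3.1, 2.7 and 2.8. CYP11A1, which makes pregnenolone from cholesterol, ran from 9.2 to 10.2 in theca (median 10.2), against 2.5, 2.4, 3.1 and 2.7. All interstitial arrays were below the array median for these genes and all theca arrays far above it. The log2 differences were 7.39 ± 0.20 (SE, adjusted p = 3.9e-14) for INSL3, 6.32 ± 0.17 (adjusted p = 3.9e-14) for LHCGR and 7.34 ± 0.28 (adjusted p = 2.3e-12) for CYP11A1, which is 168-fold for INSL3.

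HSD3B1, which forms progesterone, differed by 6.24 ± 0.20. CYP17A1, which turns progestins into androgens, was at 10.3, 7.2, 9.7, 10.0, 9.6 and 7.8 in theca arrays 1 to 6, and at 3.2, 3.5, 3.6 and 3.4 in interstitial stroma. It was thus high in every theca array, with arrays 2 and 6 well below the other 4, and the difference was 5.67 ± 0.45 (adjusted p = 6.1e-08). Of 21 measured genes of steroid synthesis 9 were higher and none lower, with a median log2 difference of 0.48 against -0.025 over all clusters. Centred on ribosomal protein genes 9 were higher and 4 lower. CYB5R3, a reductase of cytochrome b5, rose by 2.54 ± 0.19, HSD17B12 by 2.10 ± 0.22 and FDX1, the electron carrier of CYP11A1, by 1.62 ± 0.22. NR5A1, the transcription factor that drives steroid genes, was at 5.38 ± 0.26 in theca and 4.38 ± 0.15 in interstitial stroma (SD, n = 6 and n = 4), a difference of 1.01 ± 0.21 (adjusted p = 0.0016). CYP19A1, the aromatase of granulosa cells, was dim in both groups (2.98 and 2.42) and did not pass the test (adjusted p = 0.062, and 0.03996 without theca array 6).

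**Figure D1:**
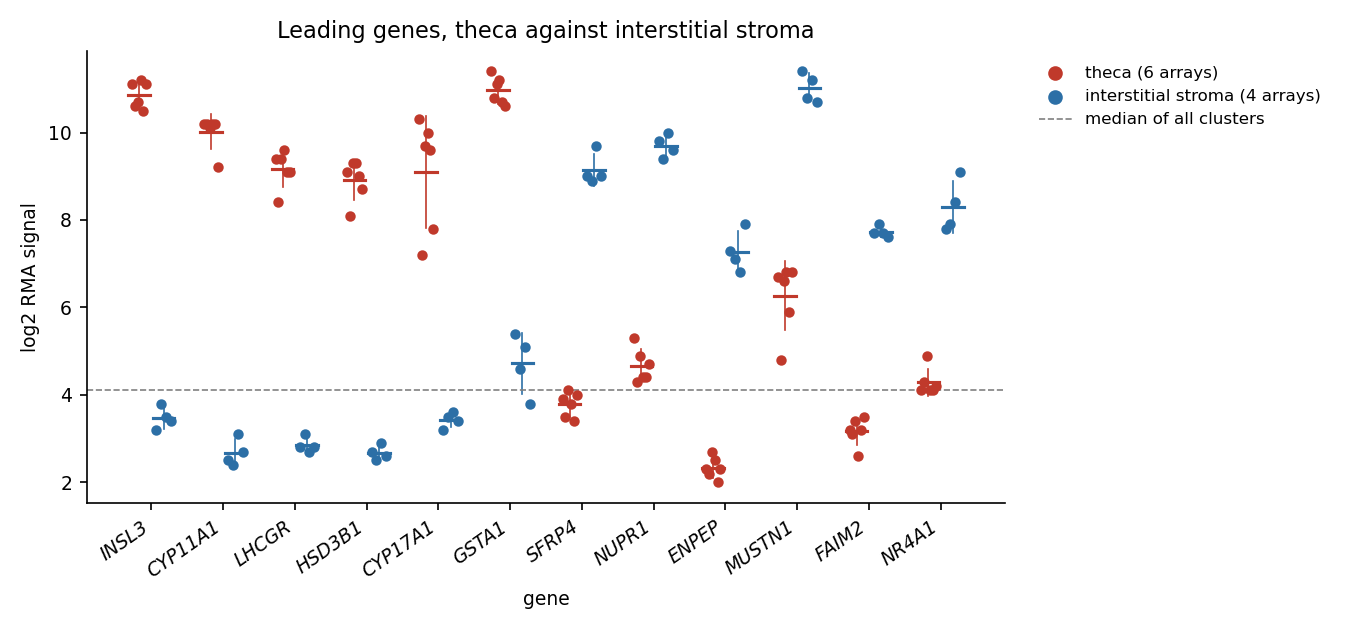
Log2 RMA signal (vertical axis) of 12 genes in each array, with the mean (bar) and SD (line) per group and the median of all clusters as a dashed line at 4.1. The steroidogenic genes lie below the dashed line in interstitial stroma and above 7 in theca, while SFRP4 and FAIM2 show the reverse, and CYP17A1 spreads widely among theca arrays.

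A total of 12 named genes were below 4.1 in every interstitial array and at 7 or above in every theca array. Besides INSL3, LHCGR, CYP11A1, HSD3B1 and CYP17A1 they were OTOS, CXCL14 (a chemokine), MAL2, KCNIP1, TNNI3 (cardiac troponin I), ITGBL1 and HPGD. OTOS, known as otospiralin of the inner ear, was higher by 6.28 ± 0.18 and TNNI3 by 4.49 ± 0.19. GSTA1, a glutathione transferase, was among the brightest theca transcripts at 10.6 to 11.4, against 5.4, 4.6, 5.1 and 3.8, a difference of 6.24 ± 0.29. A single named gene met the reverse rule: FAIM2, an inhibitor of Fas-mediated cell death, was at 2.6 to 3.5 in theca and at 7.7, 7.9, 7.7 and 7.6 in interstitial stroma.

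The genes lowest in theca relative to interstitial stroma had other roles. SFRP4, a secreted WNT inhibitor, was at 3.4 to 4.1 in theca (median 3.85), against 9.0, 8.9, 9.7 and 9.0, a difference of -5.37 ± 0.19 (adjusted p = 8e-13). NUPR1, a stress-induced nuclear protein, was at 4.3 to 5.3 in theca (median 4.55), against 9.8, 9.4, 10.0 and 9.6, a difference of -5.03 ± 0.17. ENPEP, the aminopeptidase that cleaves angiotensin II, was at 2.0 to 2.7 in theca, against 7.3, 7.1, 6.8 and 7.9, a difference of -4.94 ± 0.29. In none of these genes did the groups overlap. MUSTN1, a small protein of muscle and skeleton, was above the array median in theca (4.8 to 6.8) and at 10.7 to 11.4 in interstitial stroma, a difference of -4.76 ± 0.30. The cell-adhesion gene OPCML (-4.29 ± 0.31), the tubulin gene TUBA3E (-4.15 ± 0.35) and the homeodomain protein gene HOPX (-4.08 ± 0.38) followed.

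Several hormone receptor genes were lower in theca. Of 25 measured hormone receptors and ligands 5 were higher and 10 lower (3 and 7 with signals below 4.1 set to 4.1). THRB, the beta receptor for thyroid hormone, was at 3.6 to 4.3 in theca and at 6.8, 6.9, 7.0 and 7.0 in interstitial stroma, a difference of -3.02 ± 0.13 (adjusted p = 2.2e-11). ESR1, the alpha receptor for oestrogen, was at 4.0 to 5.3 in theca (median 4.2) and at 6.6, 6.9, 5.9 and 7.1 in interstitial stroma, a difference of -2.21 ± 0.27 (adjusted p = 7.4e-06). The groups did not overlap in either receptor. The mean over the clusters of ESR1 gave -1.17. NR3C2, the mineralocorticoid receptor, fell by 2.35 ± 0.22 and THRA by 1.39 ± 0.26. PGR, the progesterone receptor, was at 5.58 and 5.53 and did not pass the test (adjusted p = 0.85). RXFP2, the receptor of INSL3, was higher by 1.59 ± 0.17 but dim in theca (3.8 to 4.7).

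Cholesterol supply genes were higher in theca. Of 19 measured genes of cholesterol synthesis and uptake 13 were higher and none lower, with a median difference of 0.96. SCARB1, the receptor that takes up cholesterol from high-density lipoprotein, ran from 8.3 to 9.6 in theca (median 8.6), against 6.6, 6.7, 6.2 and 6.1, a difference of 2.43 ± 0.23 (adjusted p = 5.5e-07). The sterol isomerase gene EBP differed by 2.69 ± 0.33 and NSDHL, a sterol dehydrogenase, by 2.12 ± 0.33. The list mean ran from 5.27 to 6.69 among theca arrays, lowest in array 6, and from 4.95 to 5.01 in interstitial stroma. SQLE, the epoxidase of the pathway, was at 8.7, 7.1, 7.8, 8.7, 8.2 and 5.4, so theca array 6 lay below all interstitial arrays (5.6 to 6.3).

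Of 22 measured genes of cholesterol storage and efflux 11 were higher. APOA1, the apolipoprotein of high-density lipoprotein, was at 9.8 to 10.5 in theca (median 10.1), against 5.3, 7.5, 5.0 and 6.7, a difference of 4.03 ± 0.48 (adjusted p = 5.6e-06). It was bright in every theca array and uneven among interstitial arrays. SOAT1, which esterifies cholesterol, rose by 1.29 ± 0.19, PLIN2, a coat protein of lipid droplets, by 1.39 ± 0.21, and NPC1, which exports cholesterol from lysosomes, by 1.44 ± 0.19. The 4 members called lower numbered 0 to 2 without any one of theca arrays 2, 3 and 5 or of the 4 interstitial arrays.

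Mitochondrial genes were broadly higher in theca by modest amounts. The respiratory chain together with ATP synthase had 56 of 69 measured genes higher and none lower (median 0.79). ATP5MC1, a subunit of the ATP synthase rotor, differed by 2.72 ± 0.42, NDUFA11 of complex I by 1.68 ± 0.20 and ATP5F1A, the alpha subunit of ATP synthase, by 1.58 ± 0.13. In the citrate cycle 10 of 18 were higher, with citrate synthase CS at 1.52 ± 0.13 and MDH2, a malate dehydrogenase, at 1.44 ± 0.21. In fatty acid oxidation 13 of 20 were higher and none lower. Centred on ribosomal protein genes these counts were 45, 10 and 11.

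Glycolysis did not move as a group, with 4 of 17 measured genes higher, 1 lower (2 without theca array 1) and a median of -0.05. The counts were 2 higher and 3 lower when centred on ribosomal protein genes. PGK1 differed by 1.38 ± 0.24, and the glucose transporter gene SLC2A3 by -1.78 ± 0.41. Mitochondrial ribosomal protein genes were higher in 36 of 75 cases and lower in 3. With that centring 18 were higher.

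Of 28 measured proteasome genes 26 were higher, among them PSMA5 (1.49 ± 0.22) and PSMA4 (1.43 ± 0.21), subunits of the core particle. Of 27 genes of protein folding in the endoplasmic reticulum 16 were higher and 1 lower (0 without theca array 4 or 5 or interstitial array 3), led by MANF (2.02 ± 0.27) and by the protein disulphide isomerase gene P4HB (1.72 ± 0.14). Of 24 genes of antioxidant defence 15 were higher and 4 lower. The peroxiredoxins PRDX3 and PRDX1 differed by 1.75 ± 0.21 and 1.74 ± 0.26, although the mean over the clusters of PRDX3 gave 0.85. HMOX1, the inducible haem oxygenase, differed in the other direction, by -1.52 ± 0.19.

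Cytosolic ribosomal protein genes were nearly level. Of 38 measured, 10 were higher and 1 lower (0 without interstitial array 4) with a median of 0.14, and centred on the list itself the counts were 4 and 6. RPS25 had a mean of 12.08 in theca and was at 12.1 in all 4 interstitial arrays. Over all named genes 54 were at 10 or above in both groups. Of these 16 changed (29.6%), near the 28.9% of all clusters but below the 46.7% of the brightest 5355 clusters. A 95% interval of the difference within ± 0.5 was found for 35. The least different of them were mostly ribosomal protein genes (RPS16, RPL34, RPS15, RPS25, RPS21, RPL13A and RPS28), with IGFBP7, a matrix-bound binding protein, at 10.83 and 10.80.

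**Figure D2:**
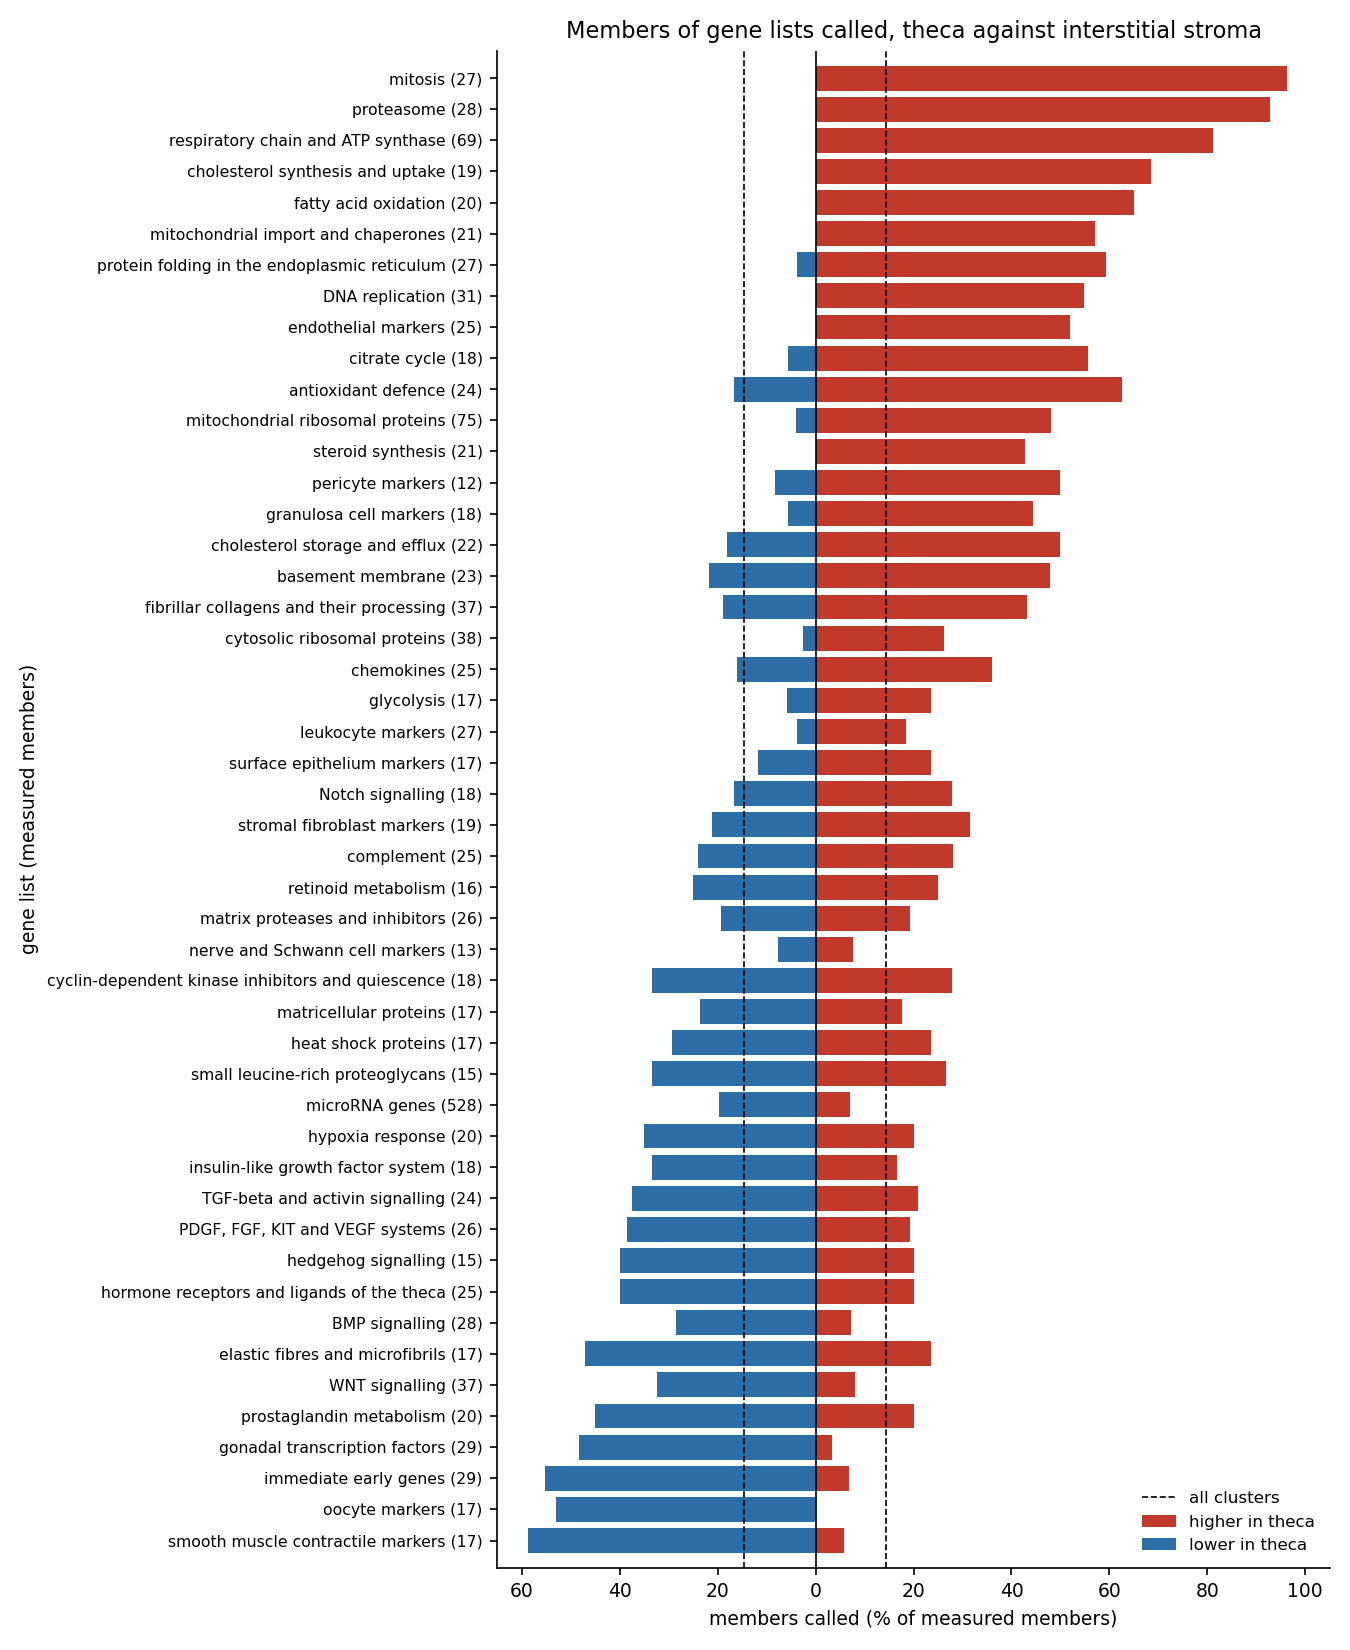
Percentage of measured members (horizontal axis) of each gene list with at least 10 measured members that were higher in theca (red, to the right) or lower (blue, to the left). The dashed lines mark all clusters, at 14.4% and 14.6%, and mitosis, proteasome and respiratory chain lie farthest to the right while smooth muscle, oocyte and immediate early genes lie farthest to the left.

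Genes of cell division formed the most one-sided list. Of 27 measured mitosis genes 26 were higher in theca and none lower, with a median of 2.60. MKI67, the Ki-67 antigen of cycling cells, was at 5.8 to 8.1 in theca (median 7.1), against 3.2, 2.8, 2.9 and 4.0, a difference of 3.79 ± 0.39 (adjusted p = 1.2e-06). KIF11, the motor that separates spindle poles, differed by 4.17 ± 0.37, TPX2, a spindle assembly factor, by 3.92 ± 0.35 and UBE2C, which marks cyclins for destruction, by 3.68 ± 0.32. AURKA, a spindle pole kinase, was the exception, at 6.47 in theca and 7.17 in interstitial stroma (adjusted p = 0.16).

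Interstitial arrays pool different animals, and many mitosis genes were near or below the array median in them. Both can narrow the spread among arrays, so variation between animals cannot be compared across the groups. On the arrays as measured, the mitosis list varied much more in theca than in interstitial stroma. Its mean log2 signal was 6.39, 7.41, 7.53, 5.69, 7.67 and 6.02 in theca arrays 1 to 6, and 4.24, 4.22, 4.24 and 4.30 in interstitial stroma. Arrays 2, 3 and 5 were highest and array 4 lowest, and every theca array was above every interstitial array. Arrays 2, 3 and 5 were also highest and array 4 lowest in DNA replication genes, with list means of 5.25, 6.62, 5.85, 4.86, 6.21 and 4.89 against 4.69 to 4.76. In that list 17 of 31 were higher and none lower, a count that depended on single arrays. It was 9 without theca array 2, 3 or 5, 7 without interstitial array 1, 11 without 2, 9 without 3 and 8 without 4. With the 10 arrays fitted alone it was 8.

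RRM2, the ribonucleotide reductase subunit made in S phase, differed by 3.11 ± 0.42 and ORC1, of the origin recognition complex, by 2.29 ± 0.36. CDC6, which loads the replicative helicase, was at 3.4, 6.8, 4.2, 2.9, 6.1 and 3.6 in theca and at 2.5 to 3.3 in interstitial stroma. It was clearly raised in theca arrays 2 and 5 alone, and its adjusted p of 0.047 rose above 0.05 without either of them, without theca array 3 or without any interstitial array (0.058 to 0.11). Of the cell-cycle brakes, CDKN1A (p21) was lower by 1.64 ± 0.23 and CDKN2C (p18) higher by 1.96 ± 0.22. CCND3, a D-type cyclin, rose by 1.68 ± 0.15.

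**Figure D3:**
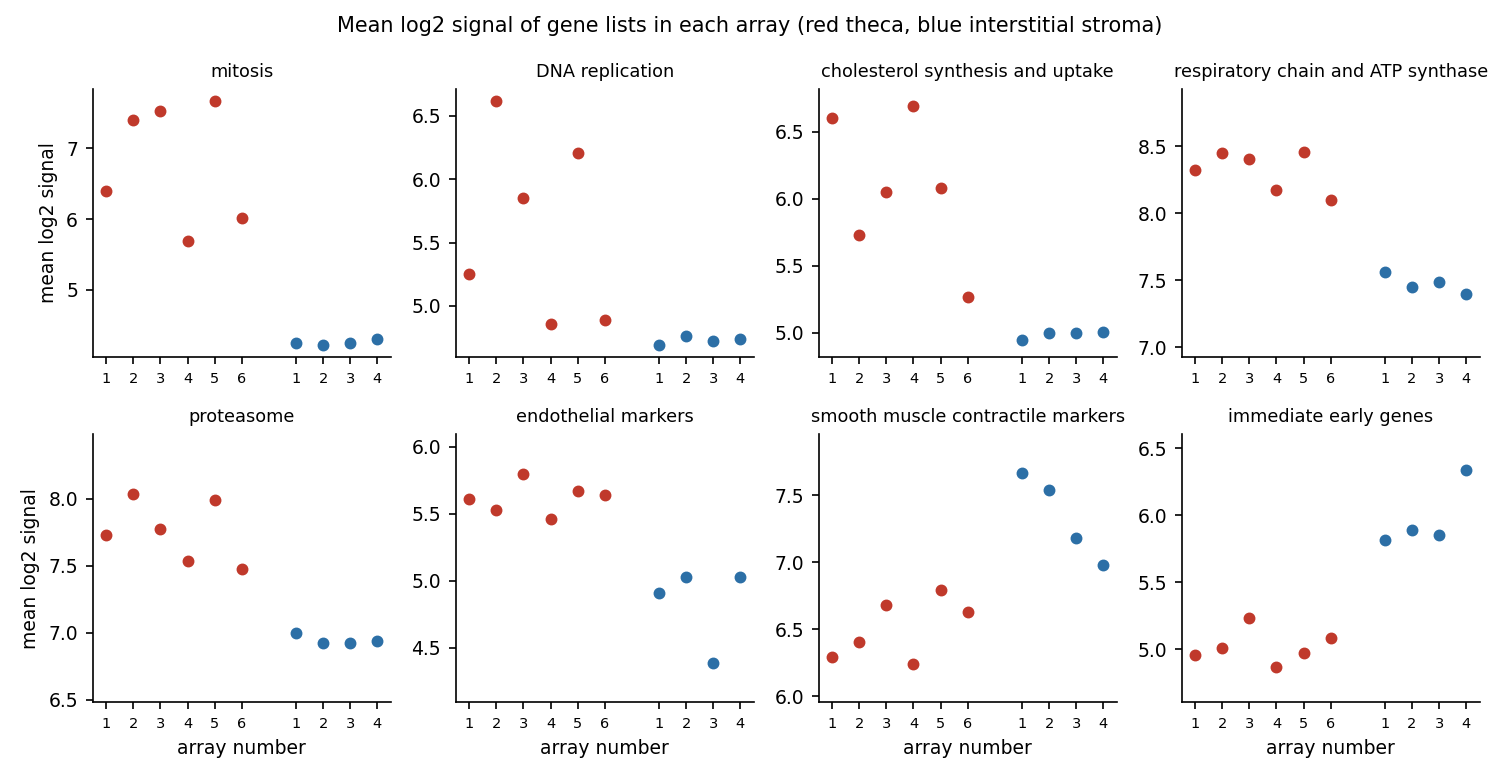
Mean log2 signal (vertical axis) of 8 gene lists in each theca array (red, 1 to 6) and interstitial array (blue, 1 to 4), each panel on its own scale. Mitosis genes range from 5.69 to 7.67 among theca arrays against 4.22 to 4.30 in interstitial stroma, and endothelial markers are lowest in interstitial array 3 (4.39).

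Matrix genes changed in both directions. Of 37 measured genes of fibrillar collagens and their processing 16 were higher in theca and 7 lower (13 and 11 when centred on ribosomal protein genes). COL1A2 was at 9.0 to 9.4 in theca and at 6.8, 7.6, 6.8 and 7.5 in interstitial stroma, a difference of 2.06 ± 0.21 (adjusted p = 8.9e-07). COL1A1 and COL3A1 differed by 1.06 ± 0.23 and 1.01 ± 0.20, and the cross-linking enzyme gene LOX by 2.28 ± 0.27. The genes of the 3 chains of collagen VI, which forms beaded filaments around cells, were lower instead, with COL6A1 at -1.12 ± 0.11, COL6A3 at -1.01 ± 0.13 and COL6A2 at -0.50 ± 0.13.

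In the basement membrane 11 of 23 were higher and 5 lower. The collagen IV gene COL4A1 rose by 1.68 ± 0.14, COL4A3 by 1.47 ± 0.32, the nidogen gene NID2 by 2.18 ± 0.24 and the laminin gene LAMA4 by 1.65 ± 0.28. LAMA3, an epithelial laminin chain, fell by 1.76 ± 0.24, from 4.67 in interstitial stroma to 2.92 in theca.

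Small leucine-rich proteoglycans, which coat collagen fibrils, moved strongly in both directions. ASPN (asporin) was at 8.8 to 9.9 in theca (median 9.35), against 5.6, 5.9, 6.0 and 5.7, a difference of 3.60 ± 0.23. OMD (osteomodulin) was higher by 3.49 ± 0.22, OGN (osteoglycin) by 3.23 ± 0.27 and BGN (biglycan) by 2.35 ± 0.22. PRELP was at 5.1 to 6.5 in theca (median 5.6), against 8.5, 9.3, 8.7 and 9.4, a difference of -3.29 ± 0.23 (adjusted p = 1.3e-08), and CHAD fell by 2.27 ± 0.23. Between these, DCN (decorin) was at 11.2 and 11.3 and LUM (lumican) at 10.7 and 10.5, and neither passed the test (adjusted p = 0.48 and 0.14). DCN differed by -0.33 when centred on ribosomal protein genes (adjusted p = 0.016). The counts were 4 higher and 5 lower of 15, and 4 and 8 with that centring.

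Elastic fibre genes showed opposed members of 1 family. FBLN5 was at 8.7 to 9.2 in theca (median 8.95), against 5.9, 5.9, 4.5 and 6.2, a difference of 3.33 ± 0.25. FBLN1 was at 6.3 to 6.7 in theca (median 6.5), against 9.6, 9.8, 9.2 and 9.7, a difference of -3.06 ± 0.14 (adjusted p = 4.6e-11). Both are fibulins that bind elastic fibres and basement membranes, and neither gene's groups overlapped. MFAP4, a microfibril protein, fell by 2.50 ± 0.26, while FBN1, the main fibrillin, rose by 1.07 ± 0.13. Over the list 4 of 17 were higher and 8 lower. Among matricellular proteins POSTN (periostin) differed by 2.83 ± 0.41, TNC (tenascin C) by -2.44 ± 0.42, TNXB by -2.17 ± 0.30 and THBS1 (thrombospondin 1) by -2.06 ± 0.28.

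**Figure D4:**
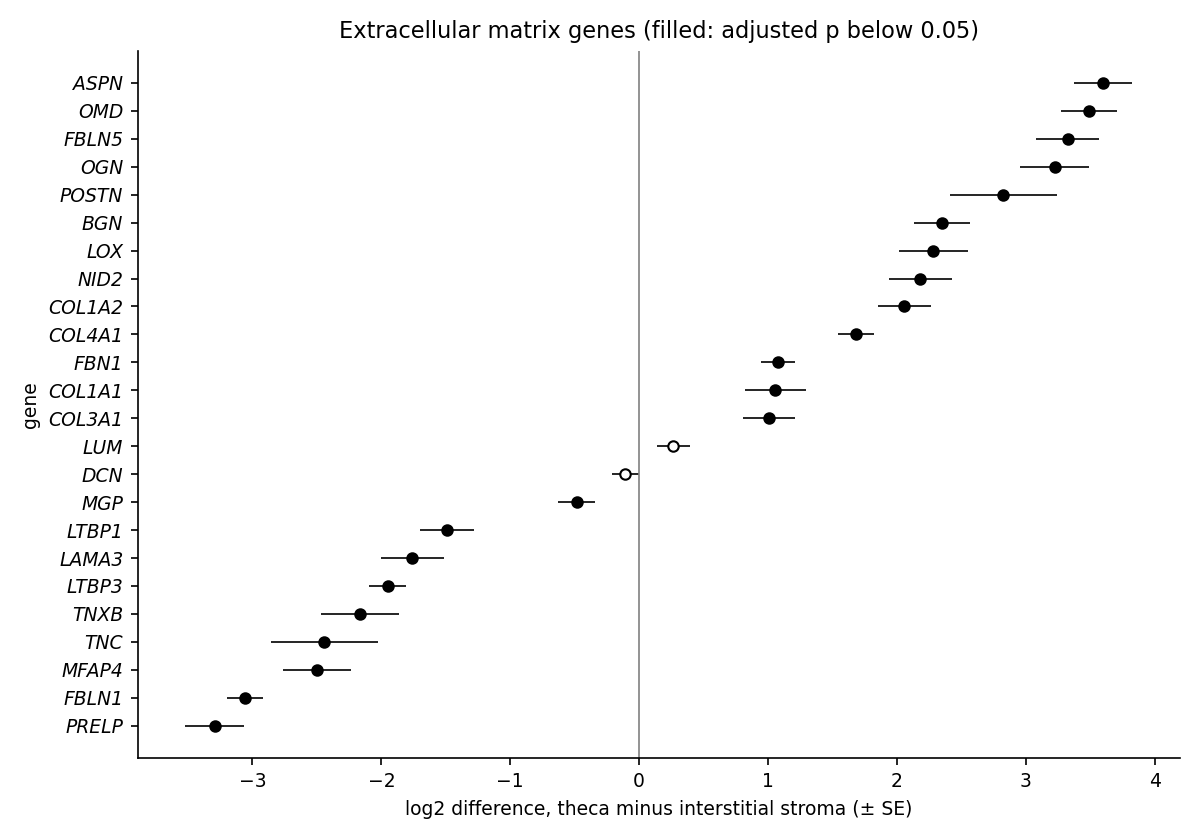
Log2 difference between theca and interstitial stroma (horizontal axis, with SE) for 24 extracellular matrix genes, filled where the adjusted p was below 0.05. ASPN, OMD, FBLN5 and OGN lie above 3, PRELP and FBLN1 below -3, and DCN and LUM near 0.

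WNT pathway genes were more often lower in theca, with 12 of 37 lower and 3 higher. Besides SFRP4, the WNT enhancer RSPO3 was at 4.1 to 5.9 in theca (median 4.85), against 9.5, 9.1, 7.9 and 8.7, a difference of -3.90 ± 0.44 (adjusted p = 3e-06). The ligand gene WNT5A was at 3.0 to 5.1 (median 3.6), against 6.6, 6.2, 6.6 and 6.0, a difference of -2.60 ± 0.30. The groups did not overlap in either gene. SFRP2 fell by 2.02 ± 0.34. AXIN2, a common target of the pathway, was at 4.43 and 4.40 and did not pass the test (adjusted p = 0.90).

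Target and receptor genes of hedgehog signalling, a route from granulosa cells to theca, stood out at the other end. PTCH1, both receptor and target, ran from 8.6 to 9.3 in theca (median 9.2), against 6.0, 6.0, 5.9 and 5.7, a difference of 3.17 ± 0.22 (adjusted p = 1.4e-08). HHIP, which binds the ligands and is also a target, ran from 6.4 to 6.8, against 2.8, 3.0, 2.9 and 3.3, a difference of 3.63 ± 0.19. GLI1, the target transcription factor, differed by 1.14 ± 0.18. These were the 3 members higher of 15, and 6 were lower, led by the co-receptor gene BOC (-1.34 ± 0.15).

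In the activin and TGF-beta families INHA and INHBA, the subunits of inhibin A, differed by 3.17 ± 0.22 and 2.92 ± 0.33, and the activin antagonist FST by 3.13 ± 0.18. INHA was at 7.1 to 7.8 in theca, against 4.5, 3.9, 4.6 and 4.4. The TGF-beta ligand genes TGFB2 and TGFB3 fell by 1.96 ± 0.19 and 1.64 ± 0.24, as did their latency partners LTBP3 (1.95 ± 0.14) and LTBP1 (1.49 ± 0.21). Of the 24 measured 5 were higher and 9 lower. BMP pathway genes were lower in 8 of 28 cases and higher in 2 (1 without any one of theca arrays 4 and 5 and interstitial arrays 1, 2 and 3). The ligand gene BMP4 was higher by 0.75 ± 0.21 (adjusted p = 0.013), which did not pass the test when centred on ribosomal protein genes (adjusted p = 0.065). The lower members included the target ID2 (-2.78 ± 0.25), the decoy receptor BAMBI (-2.17 ± 0.19) and SMAD9 (-2.01 ± 0.17). Centred on ribosomal protein genes 14 members of each of these lists were lower, and no BMP pathway gene was higher. In Notch signalling the ligand gene JAG1 and the target genes HEYL and HES1 rose by 1.94 ± 0.24, 1.90 ± 0.17 and 1.10 ± 0.21. Receptor genes went both ways, with NOTCH3 higher by 1.20 ± 0.18 and NOTCH2 lower by 0.68 ± 0.13. The targets HEY1, HEY2 and NRARP did not pass the test.

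Growth factor ligands divided. HGF, hepatocyte growth factor, was at 2.7 to 3.3 in theca, against 5.1, 6.4, 6.6 and 6.7, a difference of -3.23 ± 0.31, and its receptor MET differed by -2.68 ± 0.36. FGF10 (-2.60 ± 0.34), PDGFD (-2.18 ± 0.15) and VEGFB (-1.99 ± 0.15) were lower too. The lymphatic growth factors VEGFD (2.77 ± 0.17) and VEGFC (1.81 ± 0.23) were higher. VEGFA was at 6.48 and 6.65 and did not pass the test (adjusted p = 0.60). Of 26 members 5 were higher and 10 lower, and 2 and 10 without the 40% dimmest clusters.

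In the insulin-like growth factor system 3 of 18 were higher, near the 14.4% of all clusters, and 6 lower, against 14.6%. STC1 (stanniocalcin 1, which blocks the proteases of IGF-binding proteins) rose by 3.25 ± 0.37 and IGF2 by 1.36 ± 0.24. IGF1 differed by -1.88 ± 0.37, with interstitial values of 7.5, 7.8, 6.0 and 7.7, so that interstitial array 3 fell within the theca range of 4.8 to 6.1. The binding proteins IGFBP5 and IGFBP3 fell by 2.17 ± 0.28 and 1.40 ± 0.25.

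Prostaglandin genes changed in both directions. HPGD, which inactivates prostaglandins, was at 7.5 to 8.5 in theca (median 7.9), against 3.4, 3.0, 4.0 and 4.0, a difference of 4.32 ± 0.26 (adjusted p = 2.4e-09). SLCO2A1, the transporter that brings them into the cell, was higher by 3.74 ± 0.29. The synthase genes PTGES and PTGDS differed by -2.67 ± 0.31 and -1.98 ± 0.19, and the inducible cyclooxygenase PTGS2 by -1.96 ± 0.42. PTGES was at 2.8 to 3.6 in theca, against 6.1, 4.4, 6.8 and 5.6, uneven among the pools yet never overlapping. Of 20 measured genes 4 were higher and 9 lower, and 3 and 4 with signals below 4.1 set to 4.1.

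The retinoic acid synthases ALDH1A1 and ALDH1A2 rose by 4.08 ± 0.29 and 2.88 ± 0.24, while RBP4, a retinol carrier, fell by 2.19 ± 0.20. ALDH1A1 was bright in theca, at 8.3 to 9.4 against 4.8, 4.4, 4.9 and 5.9.

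Immediate early genes, which respond within minutes to stimuli and to tissue handling, were lower in theca in 16 of 29 cases and higher in 2 (1 without interstitial array 3, 0 when centred on ribosomal protein genes). NR4A1 was at 4.1 to 4.9 in theca (median 4.15), against 7.8, 7.9, 8.4 and 9.1, a difference of -4.02 ± 0.31 (adjusted p = 4.5e-08). EGR1 was at 6.1 to 7.3 in theca (median 6.8), against 9.4, 9.6, 9.4 and 10.5, a difference of -2.91 ± 0.43. JUN and FOS fell by 2.02 ± 0.23 and 1.86 ± 0.48. The list mean was 4.87 to 5.24 in theca, 5.82 to 5.89 in interstitial arrays 1 to 3 and 6.34 in array 4. Tissue handling differed between the groups, as described above, and its part in these differences cannot be told apart from that of compartment. Heat shock protein genes were split, with 4 of 17 higher and 5 lower. Hypoxia response genes were split too, with 7 of 20 lower and others higher, among them ADM (1.17 ± 0.24) and HIF1A (0.63 ± 0.13).

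Gonadal transcription factors other than NR5A1 were level or lower in theca, with 14 of 29 lower and 1 higher (2 without theca array 4 or 5). The largest falls in this list were NR4A1 (-4.02 ± 0.31), NR4A3 (-2.71 ± 0.21) and NR4A2 (-2.70 ± 0.28). NR4A1 and NR4A3 also belong to the immediate early list above, so the 2 lists are not separate results. TCF21, a mesenchymal factor, was at 5.7 to 7.3 in theca, against 9.0, 9.1, 9.0 and 9.0, a difference of -2.21 ± 0.24. WT1, a factor of gonadal stroma and surface, fell by 1.98 ± 0.12 (adjusted p = 2.3e-09) and LHX9 by 1.84 ± 0.31. GATA4 was at 5.93 and 6.12 and did not pass the test (adjusted p = 0.33, and 0.028 when centred on ribosomal protein genes), and GATA6 fell by 0.45 ± 0.13.

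Of 528 microRNA genes 104 were lower in theca and 37 higher, against 14.6% and 14.4% of all clusters (median -0.16). MIR99A and MIRLET7C, neighbours in a known microRNA cluster, differed by -4.12 ± 0.29 and -4.05 ± 0.22. MIR21 was at 3.3 to 4.9 in theca (median 3.85), against 6.8, 6.1, 8.4 and 7.1, a difference of -3.12 ± 0.49. MIR29C fell by 3.45 ± 0.39, and MIR143 and MIR145, known from smooth muscle, fell by 2.44 ± 0.45 and 2.05 ± 0.50. MIR2359 was the opposite case, at 7.6 to 8.2 in theca against 4.7, 3.7, 5.0 and 5.6. The array measures RNA from the gene region and does not separate precursor from mature microRNA. Most of these clusters were dim, and with every signal below 4.1 set to 4.1, 17 were lower and 17 higher.

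Vascular cell markers were more often higher than lower in theca. Of 25 endothelial markers 13 were higher and none lower. PECAM1, a junction protein of endothelium, was at 6.7 to 7.6 in theca (median 7.05), against 5.7, 5.3, 4.1 and 4.4, a difference of 2.21 ± 0.28 (adjusted p = 1.4e-05). PTPRB (2.54 ± 0.24), CDH5 (2.10 ± 0.38, and 1.28 as the mean over its clusters) and KDR (1.31 ± 0.28) followed. Of 12 pericyte markers 6 were higher and 1 lower, and RGS5 was at 8.0 to 8.5 in theca, against 7.1, 7.1, 4.7 and 7.1. The 1 lower was ANPEP (-1.12 ± 0.36, adjusted p = 0.026), a call lost without any one of theca arrays 2, 3 and 5 and interstitial arrays 1 and 4 (adjusted p = 0.056 to 0.087). PDGFRB and CSPG4 differed by -0.48 and -0.37 and did not pass the test (adjusted p = 0.062 and 0.053). Interstitial array 3 was the lowest interstitial array in CDH5 (3.3), PECAM1, RGS5 and FBLN5. The list means of endothelial markers were 5.46 to 5.80 in theca, and 4.91, 5.03, 4.39 and 5.03 in interstitial stroma.

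Contractile smooth muscle genes ran the other way, with 10 of 17 lower and 1 higher (0 when centred on ribosomal protein genes). MYH11, the smooth muscle myosin, was at 6.4 to 7.8 in theca (median 7.3), against 9.9, 9.8, 9.5 and 9.4, a difference of -2.37 ± 0.20 (adjusted p = 1.6e-07). Its activator MYOCD (-2.35 ± 0.28), CNN1 (-2.23 ± 0.34) and DES (-2.06 ± 0.26) were lower as well. The list mean was 6.24 to 6.79 in theca and 6.98 to 7.66 in interstitial stroma.

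Stromal fibroblast markers were present in both groups, 6 of 19 higher and 4 lower. PDGFRA was at 7.4 to 8.5 in theca and at 9.3 to 9.8 in interstitial stroma, a difference of -1.30 ± 0.19. Centred on ribosomal protein genes 9 members were lower.

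Leukocyte, complement and chemokine genes changed in both directions. The leukocyte markers PTPRC (4.63 and 4.50) and CD3E (3.95 and 4.05) did not pass the test, and 5 of 27 were higher (18.5%, against 14.4% of all clusters) and 1 lower, with CD163 at 1.49 ± 0.17 and C1QA at 1.25 ± 0.35. Without interstitial array 1 or 2, or centred on ribosomal protein genes, the count was 3, and without interstitial array 3 the adjusted p of C1QA was 0.053, with a difference of 0.85. CPA3, of mast cells, differed by -1.57 ± 0.51 and did not pass the test without interstitial array 2 or 4 (adjusted p = 0.093 and 0.12). In the complement system C1S was at 3.6 to 5.5 in theca, against 7.9, 8.0, 8.4 and 8.5, a difference of -3.83 ± 0.29. C1R, SERPING1 and CLU fell by 2.36 ± 0.19, 2.28 ± 0.30 and 1.77 ± 0.16. Other members were higher besides C1QA, among them CD55 (1.21 ± 0.25), C1QB (0.83 ± 0.22) and CD46 (0.63 ± 0.12). The chemokine CXCL12 differed by -1.92 ± 0.42 and CXCL14 by 5.78 ± 0.22.

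Markers of cells that either collection could have carried along were measured too. Of 18 granulosa cell markers 8 were higher in theca (5 with signals below 4.1 set to 4.1) and 1 lower. The latter was FOXL2, whose call was lost without any one of theca arrays 1 and 2 and interstitial arrays 1, 2 and 3 (adjusted p = 0.055 to 0.13). The list mean was 4.71 to 5.30 in theca and 4.07 to 4.21 in interstitial stroma, and the members that led it, INHA, FST and INHBA, are the activin and inhibin genes described above. Of the defining markers FSHR was at 3.4 to 5.4 in theca against 3.0 to 3.5, AMH at 4.1 to 4.6 against 3.4 to 4.1, and CYP19A1 and FOXL2 were below 4.1 in all 10 arrays. FSHR and AMH were higher in theca by 1.23 ± 0.35 and 0.66 ± 0.18, and AMH did not pass the test when centred on ribosomal protein genes (adjusted p = 0.085).

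Oocyte markers were lower in theca in 9 of 17 cases (2 with signals below 4.1 set to 4.1) and higher in none. The list mean was 3.09 to 3.48 in theca and 3.85 to 4.27 in interstitial stroma. DAZL, a germ cell RNA-binding protein, was at 3.2 to 4.0 in theca, against 5.9, 6.4, 5.7 and 5.1, a difference of -2.16 ± 0.32 (adjusted p = 6.4e-05). GTSF1 differed by -3.22 ± 0.45 and ZP3, of the egg coat, by -1.35 ± 0.35. The defining markers GDF9 and FIGLA were at or below 4.1 in all 10 arrays. Of 17 surface epithelium markers 4 were higher in theca and 2 lower. KRT8 and KRT18, both higher in theca, also belong to the granulosa cell list. MSLN and UPK3B were below 4.1 throughout, GPM6A rose by 2.85 ± 0.26 and UPK1B by 2.58 ± 0.39, and EPCAM fell by 1.52 ± 0.20 (adjusted p = 2.3e-05). EPCAM had a mean of 5.88 in stroma close to follicles and 3.3 in the tunica, so it was not highest in the surface layer. LRRN4 fell by 0.52 ± 0.17, a call lost without any one of theca arrays 1, 5 and 6 and interstitial arrays 1, 3 and 4 (adjusted p = 0.051 to 0.086). The red blood cell markers HBB and ALAS2 did not pass the test, though HBB did without theca array 5 or interstitial array 4 (adjusted p = 0.0482 and 0.0498). Of 13 nerve and Schwann cell markers NCAM1 rose by 1.95 ± 0.28 and ERBB3 fell by 0.48 ± 0.16, the latter a call lost without theca array 6 or interstitial array 2 (adjusted p = 0.057 and 0.12). The other members of that list did not pass the test, SOX10 among them, which was dim in both groups. The part of granulosa and oocyte RNA in the differences above was not tested.

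Some genes varied widely among the theca arrays. RGN (regucalcin) was at 8.0, 3.6, 7.1, 8.0, 6.8 and 4.0, low in arrays 2 and 6 as CYP17A1 was. It passed the test only without theca array 2 (difference 1.73, adjusted p = 0.031, against 1.20 and 0.21 with it). ASIP (agouti signalling protein) was at 3.5 in theca array 2 and at 7.2 to 7.6 in the others. CARTPT, a neuropeptide precursor, was at 7.7, 3.0, 5.8, 3.8, 2.7 and 7.8 in theca and at 2.4 to 3.6 in interstitial stroma. Its difference of 2.36 ± 0.80 (adjusted p = 0.035) did not pass the test without any one of theca arrays 1, 3 and 6 or of interstitial arrays 1, 2 and 3 (adjusted p = 0.064 to 0.084). Theca arrays 1, 3 and 6 were also highest in FSHR, CDH2, NR5A2 and GATM of the granulosa cell list. FSHR was at 5.2, 3.4, 4.7, 4.1, 3.5 and 5.4 in theca, and CDH2 at 5.8, 3.3, 5.0, 3.2, 3.1 and 6.3. CDH2 was also at 6.2, 4.9, 6.2 and 4.6 in interstitial stroma, so its signal was not particular to theca. AMH (4.4, 4.6, 4.6, 4.2, 4.4 and 4.1) did not follow this order, and neither did other members such as CYP19A1 and FST. The part of granulosa RNA in the CARTPT values was not tested. GSTA5, a glutathione transferase, was at 9.1 and 8.8 in theca arrays 1 and 4 and at 5.6 to 6.4 in the others. It is a close relative of GSTA1, and reactivity of the probes across the family was not tested. In interstitial stroma the class II histocompatibility gene BOLA-DQB1 ranged from 5.0 to 8.2, SAA3, an acute-phase protein, from 3.5 to 7.0 and the matrix gene DPT from 3.7 to 7.6.

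**Figure D5:**
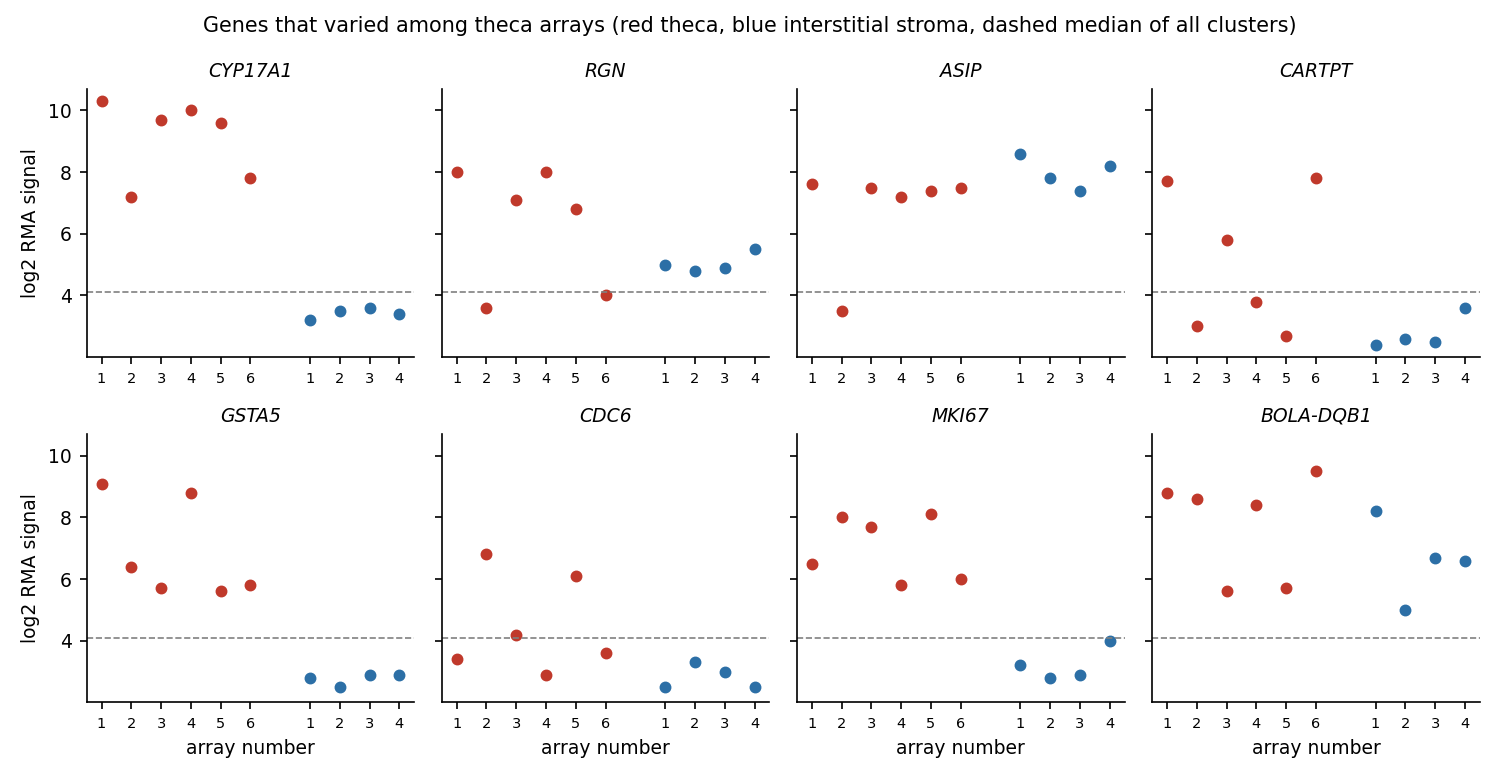
Log2 RMA signal (vertical axis) of 8 genes in each theca array (red, 1 to 6) and interstitial array (blue, 1 to 4), with the median of all clusters dashed at 4.1. RGN is low in theca arrays 2 and 6, CARTPT is above 5 in theca arrays 1, 3 and 6, and CDC6 is above 6 in theca arrays 2 and 5.

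Few theca differences to interstitial stroma were called as unlike those to the other laser-captured compartments. The theca difference to interstitial stroma was set against the mean theca difference to stroma close to follicles and the tunica albuginea. Since the same theca arrays stand on both sides, this contrast compares interstitial stroma with the mean of the other 2 laser-captured compartments. It was called at 10 of 26773 clusters (0.0374%), more positive against interstitial stroma at 9 (0.0336%) and more negative at 1 (0.00374%). Of these 10, 9 carry a gene symbol other than a locus number. PTGES was 2.67 lower in theca than in interstitial stroma, where the differences to the other compartments were -3.80 and -5.15. PENK, the precursor of enkephalins, differed by -1.08 here and by -1.56 and -3.98 there, and LAMA4 by 1.65 here and by 3 and 3.58 there. SCUBE3 and FAM163A were lower in theca in all 3 pairs (-2.92 and -1.77 here). HTR1D, EPHX1, TMEM132D and COL8A2 did not pass the test between theca and interstitial stroma (adjusted p = 0.15 to 0.89), though COL8A2 did when centred on ribosomal protein genes (adjusted p = 0.014). Their theca differences to stroma close to follicles were also small (-0.28 to -0.07), and those to the tunica were -2.71 to -1.83. The calls of these genes thus rested on high signal in the tunica. At 846 clusters the difference from theca was called against interstitial stroma alone, 93 of them at 2-fold or more, and at 0 of these 93 was the difference between the pairs itself called by limma with Benjamini-Hochberg adjustment (48 at an unadjusted p below 0.05). A mean of unlike compartments can also hide a gene. TUBA3E differed by -4.15 here, by -5.5 to stroma close to follicles and by -0.7 to the tunica, and was not called. The lack of calls does not show that the pairs are alike.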

How the data were processed

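The authors deposited log2 signals made with RMA (background correction, quantile normalisation and summary of probes) in Partek 6.5, per the submitters' processing notes, rounded to 1 decimal. The array, its probes and the number of animals per pool are not given in more detail in the sources used here. Quantile normalisation removes any difference in total signal, and no detection calls were used. Groups came from sample titles. A further label calling every sample thecal tissue was not used. Genes were named through the platform annotation, checked against RefSeq (ARS-UCD2.0): 18457 clusters had 1 symbol and 688 several, and 7628 had none. The brightest cluster stood for a gene with several.

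The test was limma (version 3.58.1, under R 4.3.3), fitted to all 18 arrays with 1 mean per compartment and moderated by empirical Bayes. Its p-values are two-sided and adjusted over all clusters (Benjamini-Hochberg). SE is the moderated standard error, SD the spread within a group. The spread behind the p-values is pooled over the compartments of all 18 arrays and moderated across clusters. This pooled spread includes that between theca animals, between interstitial pools, and within the tunica and the stroma close to follicles. The fit was tested on simulated data. Same-numbered arrays were not treated as pairs, since their deviations from group means did not correlate (-0.048 to 0.0054).

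The gene lists (50, with 1684 of 1812 members measured) and the comparison were chosen with earlier results of these data known. Named genes were the 12 largest changes each way without overlap, the 10 largest each way above the median in both groups, up to 3 per list with its defining markers, the 8 bright genes least apart, and the 6 most variable per group. Other list members were named after their values were seen. The alternatives were the fit to 10 arrays, array weights, trended moderation, a filter on dim clusters, a floor, 2 other centrings, a replicate block, single arrays left out, and means over clusters of a gene.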

Additional observations from a re-analysis of the deposited data

Results flagged for a closer look

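Each of 281 named genes was checked in both groups for 1 array far from the others of its group (Dixon's criterion), and 42 of 562 checks met it, where chance gives about 1 in 20. Theca array 6 accounted for 11 of them, theca array 2 for 6 and interstitial array 3 for 8.

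Theca array 6 was lowest in CYP11A1 (9.2), CXCL14 (8.1), PLD1 (7.6), EBP (5.7), CYB5R3 (9.2), MRPS25 (4.9), ERBB3 (2.6) and NR4A2 (3.9), and highest in COL3A1 (9.7), TGFB3 (5.6) and GLI1 (6.1). Several of the low values are genes of steroid and sterol synthesis. Theca array 2 was lowest in ASIP (3.5), PDGFRA (7.4), ALDH1A1 (8.3), JAG1 (5.7) and BOC (3.7) and highest in HBB (4.3). Theca array 3 was highest in NR4A1 (4.9) and KRT19 (4.4), and theca array 5 lowest in GATA4 (5.7).

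Interstitial array 3 was lowest in RGS5 (4.7), C1QA (2.6), COL4A1 (6.2), IGF1 (6.0), SFRP2 (5.0) and VEGFB (6.8), and highest in SFRP4 (9.7) and RPL34 (10.8). Interstitial array 1 was lowest in MIR99A (7.2), KIF11 (2.5) and ANGPT1 (2.6) and highest in GDF9 (3.6) and RPS15 (11). Interstitial array 2 was highest in TCF21 (9.1), HEYL (5.1) and VEGFC (5.4) and lowest in RPS21 (11.4). Interstitial array 4 was highest in PRDX3 (6.8), JUN (8.4), CARTPT (3.6) and RPL13A (11.3) and lowest in MFAP4 (8.6). For TCF21, RPL34, RPS15, RPS21, RPL13A and VEGFB the whole range of the group was 0.1, a single rounding step.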

How the results depend on the processing

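The number of changed clusters (7747) lay between 5171 and 10502 in all alternatives, and no named gene with a call reversed direction. Fitting the 10 arrays alone gave 7847, array weights 8416 and trended moderation 7772. Without the 40% dimmest clusters it was 6398, 54.1% of them higher in theca, against 49.7%. With a floor at 4.1 it was 5171, with 2209 lower in theca against 3897. Centred on the brightest 25% 3096 were higher and 5261 lower. Centred on ribosomal protein genes 2341 were higher and 8161 lower. With the replicate block it was 6565, and 6699 for the same arrays without the block (chosen after seeing the data). Leaving out single arrays gave 6508 to 7749 changes, 3300 to 3880 higher, 3195 to 3869 lower and 2416 to 2692 at 2-fold. Of 98 list counts, 30 moved beyond 1.5 times when centred on ribosomal protein genes, 20 with the floor and 4 to 11 without single arrays. Over 281 named genes and 5331 values, 119 fell below the threshold, in 29 genes, and 19 rose above it. FDFT1, PCNA, PTTG1 and CDC6 lost their calls most often. The number of arrays, rounding to 0.1 and unknown background limit the dim genes most, and collection route cannot be separated from compartment.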
